A study of Mus musculus with 196 samples.

Results

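Mouse primordial germ cell-like cells (PGCLCs) of the line H18 were cultured with bone morphogenetic protein 2 (BMP2) alone or with BMP2 and retinoic acid (RA), a pair of treatments labelled BMP2 and B2RA, and their RNA was compared at culture days 5, 7 and 9. The libraries were chosen by line, treatment and day, which gave 12 of the 196 samples of a series on the oogenic fate, 2 for each treatment at each day. H18 carries 2 reporter transgenes, Prdm1-mVenusTg/0 and Dppa3-ECFPTg/0, on the background 129S1:C57BL/6=1:1, and both treatments share this genotype, with Zglp1 and Stra8 not edited. Embryonic stem cells were first turned into epiblast-like cells, and these were induced with BMP4, stem cell factor (SCF), LIF and EGF. The PGCLCs were sorted at day 4 by the Prdm1 reporter and expanded on m220 feeder cells, which carry a membrane-bound SCF. They were collected by the Dppa3 reporter, so a cell that had lost this reporter was not in the sample. H18 is 1 line, and the doses are not in the labels used here. The labels do not say whether the libraries numbered 1 and 2 came from separate cultures. The p-values therefore measure a spread between libraries, which may be technical. In the main fit this spread was pooled over 191 PGCLC libraries of the series. The question the comparison addresses is when each gene group parts between BMP2 alone and BMP2 with RA.

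RA enters the nucleus and binds RAR receptors, which sit with RXR partners on direct repeats of a short DNA element and turn on nearby genes. Among the classic targets are the CYP26 enzymes that break RA down and RARB itself, so cells that receive RA limit their own exposure. In the fetal ovary germ cells leave a dividing, pluripotency-related state and enter meiosis: STRA8 works with MEIOSIN as a transcription factor pair, REC8 and other meiotic cohesins hold the chromatids, and the synaptonemal complex joins the paired chromosomes. BMP signals act in the same window through SMAD proteins. Primordial germ cells before this step express PRDM1, PRDM14, TFAP2C and DPPA3 together with OCT4 (Pou5f1), SOX2 and NANOG.

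The promoters of genes that parted hold the letters of these factors in only some cases, and 5 windows are shown so that the values can be read beside them. A window runs from 250 bases before to 50 bases after the RefSeq start (table build GRCm38.p6), is written in the direction of the gene, and has the matched letters in capitals. In the first 3 the capitals mark 2 copies of this element (AGGTCA or GGGTCA or AGTTCA or GGTTCA, on either strand) with 5 bases between them, a repeat known as DR5. Cyp26a1 lies at chr19:37697558-37697857 on the plus strand, Rarb at chr14:16575427-16575726 on the minus strand and Blvrb, which encodes biliverdin reductase B, at chr7:27452168-27452467 on the plus strand.
Cyp26a1: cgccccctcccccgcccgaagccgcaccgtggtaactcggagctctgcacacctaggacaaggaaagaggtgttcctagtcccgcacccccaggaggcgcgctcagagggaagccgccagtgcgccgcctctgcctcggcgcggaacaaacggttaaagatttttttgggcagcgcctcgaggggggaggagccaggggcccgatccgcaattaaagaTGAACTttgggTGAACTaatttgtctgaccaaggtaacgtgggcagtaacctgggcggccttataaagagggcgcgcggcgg
Rarb: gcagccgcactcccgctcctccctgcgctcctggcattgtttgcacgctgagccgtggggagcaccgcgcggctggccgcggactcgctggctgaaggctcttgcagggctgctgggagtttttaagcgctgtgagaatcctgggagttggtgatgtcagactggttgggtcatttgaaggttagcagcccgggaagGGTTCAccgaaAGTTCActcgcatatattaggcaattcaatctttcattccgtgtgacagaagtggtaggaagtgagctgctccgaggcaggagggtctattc
Blvrb: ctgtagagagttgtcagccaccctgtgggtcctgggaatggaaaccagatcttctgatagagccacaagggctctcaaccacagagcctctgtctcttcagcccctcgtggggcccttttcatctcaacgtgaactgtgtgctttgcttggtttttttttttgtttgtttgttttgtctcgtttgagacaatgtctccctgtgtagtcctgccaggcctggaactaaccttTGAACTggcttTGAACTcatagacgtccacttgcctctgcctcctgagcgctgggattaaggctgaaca
Of 32851 windows of this length in the table, 32 held a DR5, and these belonged to 31 of 27025 genes (0.115%). Of the genes tested at day 7, 6727 had a window and 3 of them held a DR5, namely the 3 shown. In the limma fit described below, the log2 change of Blvrb with RA was 1.33 ± 0.4 at day 7 (adjusted p = 0.028). It was 0.56 at day 5 and 0.27 at day 9, where it did not pass (adjusted p = 0.71 and 0.66). Results of the fit of 12 libraries and of fits without 1 library are not given for Blvrb. A further Blvrb window, at chr7:27447728-27448027, held no DR5. The Stra8 window held none of the motifs searched.

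The other pair of windows holds CNCCTCAG, a sequence known as a STRA8 binding motif, with its matches on either strand in capitals. Prdm9, the histone methyltransferase that places meiotic breaks, lies at chr17:15564305-15564604 on the minus strand, and Hfm1, a crossover helicase, at chr5:106925841-106926140 on the minus strand. A further Prdm9 window, at chr17:15563282-15563581, held no match.
Prdm9: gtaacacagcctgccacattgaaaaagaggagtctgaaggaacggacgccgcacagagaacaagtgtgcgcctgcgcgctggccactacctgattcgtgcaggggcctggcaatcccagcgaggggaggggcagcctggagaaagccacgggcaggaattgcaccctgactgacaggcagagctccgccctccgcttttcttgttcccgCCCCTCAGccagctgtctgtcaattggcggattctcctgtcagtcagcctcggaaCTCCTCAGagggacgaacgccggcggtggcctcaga
Hfm1: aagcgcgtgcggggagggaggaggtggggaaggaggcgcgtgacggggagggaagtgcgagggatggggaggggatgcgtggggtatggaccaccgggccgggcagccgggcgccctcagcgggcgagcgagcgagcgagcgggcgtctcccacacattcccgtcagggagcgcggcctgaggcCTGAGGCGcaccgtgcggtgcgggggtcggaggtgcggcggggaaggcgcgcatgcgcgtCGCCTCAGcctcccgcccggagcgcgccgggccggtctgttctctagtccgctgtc
CNCCTCAG was present in the window of 114 of 630 genes called higher at day 9 (18.1%), 45 of 470 called lower (9.57%) and 796 of all 6927 tested (11.5%), where called means an adjusted p under 0.05 and a log2 difference of 1 or more in size. At day 7 the shares were 40 of 194 called higher (20.6%), 9 of 104 called lower (8.65%) and 772 of all 6727 tested (11.5%). Among 12 break and strand exchange genes with a window, Prdm9 was the 1 that held this motif. In the other meiotic lists it was in 5 of 13 windows (cohesin and synaptonemal complex), 2 of 6 (crossover), 3 of 6 (telomere and kinase factors) and 2 of 7 (meiotic entry). CACGTG, the E-box of MAX and its partners, was present in the window of 69 of 630 genes called higher at day 9 (11%). It was in 72 of 470 called lower (15.3%) and in 12.8% of all tested. At day 7 it was in 15 of 194 called higher (7.73%), 13 of 104 called lower (12.5%) and 13.1% of all tested. By list it was in 7 of the 13 windows of meiotic cohesin and synaptonemal complex genes. Other lists had 8 of 18 (germline genes silenced by methylation), 1 of 12 (break and strand exchange) and 0 of 6 (telomere and kinase factors). A match describes the letters of a window and is not a measured site.

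The 12 libraries held 1798944 to 4118800 reads assigned to genes, so that 1 read was worth 0.243 to 0.556 reads per 1000000 (RPM), and 13733 to 16957 genes had a read. Replicates correlated least in B2RA at day 7 (Pearson r over genes 0.811, against 0.882 to 0.926 in the other groups). In that group replicate 1 held 97 reads (30.5 RPM) of a transgene, the reverse transactivator, and replicate 2 held 0. H18 is not labelled as carrying this sequence, so the day 7 values with RA may include other material, and its source was not tested. All 9 germ cell markers checked (Dppa3, Prdm1, Prdm14, Tfap2c, Nanos3, Dnd1, Kit, Pou5f1 and Ifitm3) had reads in every library. Their summed level at day 9 was 1697 and 2359 RPM with BMP2 alone and 284 and 337 RPM with RA. These 9 are genes of early germ cells, and most of them were called lower with RA at day 9. Other germ cell genes, such as Taf7l and Tex101, were called higher (below), so the sum does not measure the number of germ cells. At day 9 the BMP2 libraries stood apart from each other on the first principal component (37.9 and -8.9, against 93.6 and 91.0 with RA). The mesoderm and endoderm markers summed to 318 RPM in B2RA replicate 1 of day 9, 90.4 RPM in replicate 2 and at most 53.8 RPM in the other 10 libraries. In bulk samples fewer cells of a type and less RNA per cell cannot be told apart.

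The treatments differed in few genes at day 5 and in many at day 9. At day 5, 16 genes were called higher and 3 lower with RA of 8710 tested (0.184% and 0.0344%). At day 7, 255 were called higher and 168 lower of 9335 (2.73% and 1.80%), and at day 9, 868 higher and 670 lower of 9594 (9.05% and 6.98%). The median of all genes tested was -0.11, 0.05 and 0.07 at the 3 days on the log2 scale, and with TMM factors -0.02, -0.05 and 0.06; at day 7 those factors gave 195 higher and 253 lower (2.09% and 2.71%). These counts come from limma on log2(RPM + 1) with the spread pooled over 191 PGCLC libraries. The pooled spread (median residual SD 0.33) was below that of the 12 libraries (0.398), so the counts may be too high. A gene was tested where at least 2 of the compared libraries held 10 RPM, so a gene that is low in one treatment entered only by being high in the other, and the counts and medians of tested members below describe the lists and carry no test. In a fit of the 12 libraries alone they were 2 higher (0.0230%) and 0 lower at day 5, 12 and 10 at day 7 (0.129% and 0.107%), and 178 and 296 at day 9 (1.86% and 3.09%).

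Single libraries moved these counts. At day 9 leaving out BMP2 replicate 2 left 152 higher and 267 lower, and leaving out BMP2 replicate 1 gave 1319 and 961. At day 7 the count was 480 and 688 without B2RA replicate 1, and 103 and 76 without BMP2 replicate 2. At day 5 it was 2 and 0 without B2RA replicate 2, 6 and 0 without BMP2 replicate 2, and 28 and 26 without BMP2 replicate 1. Of the genes named below or held in the gene lists, 10 were called at day 5, 70 at day 7 and 152 at day 9, and the call also held in the fit of 12 libraries and without each library in turn for 2, 10 and 62 of them. At day 5 the 2 were Cyp26a1 and Stra8, and among the 10 of day 7 were Cyp26a1, Cyp26b1, Stra8, Mdk, Car7, Slc24a6, Hsd17b11, Dusp4 and Tcl1. Every other call of days 5 and 7 named below was lost in the fit of 12 libraries.

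**Figure D1:**
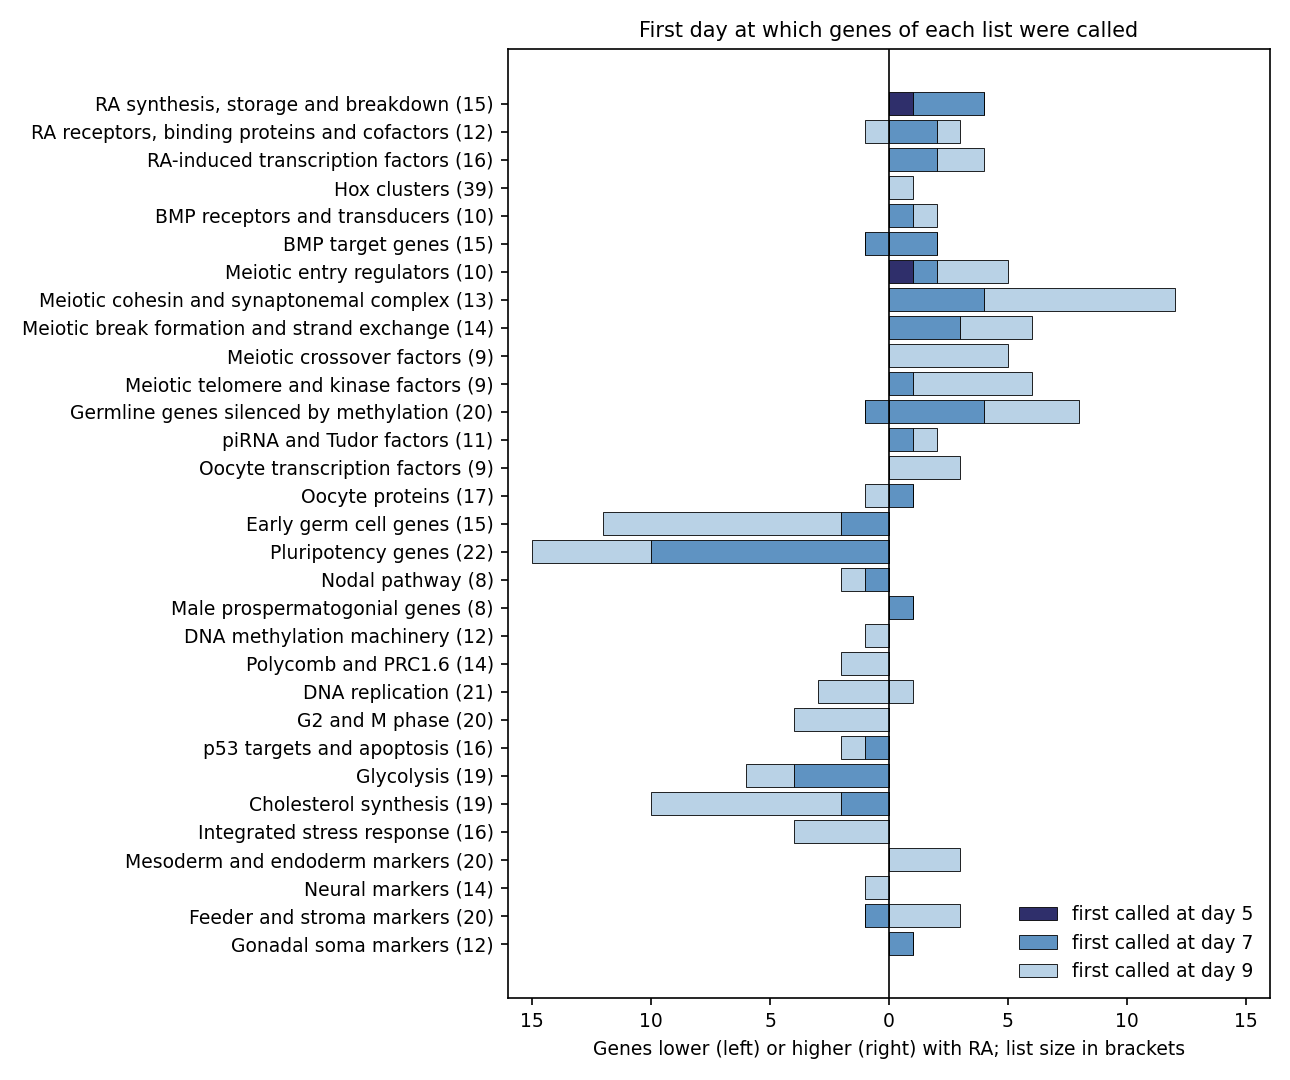
Number of genes in each list by the first day at which B2RA was called different from BMP2 alone, higher to the right of 0 and lower to the left, with one color per day. At day 5 only the RA metabolism and meiotic entry lists have a member (1 each), and 8 of the 13 cohesin and synaptonemal complex genes and 10 of the 15 early germ cell genes were first called at day 9.

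Cyp26a1 and Stra8 had the largest rises at day 5. Of 15 genes of RA synthesis, storage and breakdown in the table, 1 of 5 tested was called higher at day 5, 4 of 7 at day 7 and 4 of 7 at day 9, none lower, with median changes of -0.32, 3.53 and 3.90. Among all genes tested 0.184%, 2.73% and 9.05% were called higher at these days. Cyp26a1, which encodes the main RA-degrading enzyme of the early embryo, lies at chr19:37697798-37701536 (mm10). Its level at day 5 was 1.2 and 1.67 RPM with BMP2 alone and 38.8 and 83.3 RPM with RA, a rise of 4.58 ± 0.62 (SE) on the log2 scale (adjusted p = 3.5e-07). At day 7 it was 0 and 0.486 RPM against 278 and 429.7 RPM, a rise of 8.15 ± 0.62 (adjusted p = 2.9e-20). At day 9 neither BMP2 library had a read, which allows up to 0.444 RPM over the pair, while the RA libraries held 149 and 388 RPM, at least 606-fold higher. The groups did not overlap at any of the 3 days, and the window shown above holds a DR5 16 to 32 bases before the start. At culture day 3.5, the earliest with both treatments, Cyp26a1 stood at 0.942 and 2.3 RPM with BMP2 alone and 11.1 and 9.43 RPM with RA.

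Of the other 14 genes of this list 3 were first called at day 7 and 11 at no day. Cyp26b1, the CYP26 enzyme of the fetal testis, rose from 1.2 and 1.21 RPM to 20.1 and 29.7 RPM at day 7 and reached 18.2 and 43.8 RPM at day 9 against 0.338 and 0.525 RPM (log2 change 4.36 ± 0.62, adjusted p = 2.6e-08). Dhrs3, which turns retinaldehyde back to retinol, had 3.59 and 1.46 RPM against 27.4 and 55.0 RPM at day 7 and 0.338 and 3.41 RPM against 27.7 and 44.9 RPM at day 9 (log2 change 3.90 ± 0.64, adjusted p = 1.3e-06). In the fit of 12 libraries Dhrs3 had an adjusted p of 0.096 at day 7. The 4 members called at day 9 kept that call in the same fit and without each library in turn.

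Of the 12 RA receptors, binding proteins and cofactors, 2 of 10 tested were called higher at day 7, and 2 higher and 1 lower of 10 at day 9. The shares of all genes tested were 2.73% higher at day 7, and 9.05% higher and 6.98% lower at day 9. Rarb, at chr14:16430839-16819156, stood at 5.18 and 3.40 RPM with BMP2 alone and 38.7 and 33.2 RPM with RA at day 7, and at 2.03 and 1.58 RPM against 21.5 and 43.5 RPM at day 9. Both RA libraries were above both BMP2 libraries at each of these days, and the rise at day 9 was 3.5 ± 0.64 (adjusted p = 1.3e-05). At day 7 its rise of 2.82 had an adjusted p of 0.092 in the fit of 12 libraries and of 0.061 without BMP2 replicate 2. Rara, whose product is the most widely expressed RA receptor, was 15.1 and 13.4 RPM against 36.5 and 34.5 RPM at day 7 and did not pass the test (adjusted p = 0.13). Crabp2, which carries RA to the nucleus, was called at day 7 and at no other day, at 33.9 and 26.9 RPM against 78.1 and 101 RPM (adjusted p = 0.044, and 0.17 in 12 libraries and 0.25 without BMP2 replicate 2). Fabp5, which carries fatty acids and RA, did not pass at day 7 (14.7 and 27.2 RPM against 11.6 and 15.7 RPM, adjusted p = 0.59) and was called higher at day 9, where the RA libraries held 224 and 44.6 RPM and the BMP2 libraries 17.3 and 11.0 RPM.

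Few of the genes that RA induces in other embryonic tissues, nearly all of them transcription factors, reached the test. Of 16 measured, 4 were tested at day 5, 7 at day 7 and 9 at day 9. Called higher were 0, 2 and 3 of them, beside 0.184%, 2.73% and 9.05% of all genes tested. The pair called at day 7 was Foxa1 and Tgm2, a transglutaminase and so no transcription factor, whose call was lost in the fit of 12 libraries (adjusted p = 0.34). Foxa1, a pioneer factor of endoderm, had 2.39 and 0.486 RPM against 15.7 and 20.8 RPM at day 7 (log2 change 3.09 ± 0.54, adjusted p = 3.1e-05). Nr2f2, an orphan nuclear receptor, had 0 and 3.32 RPM in the RA libraries of day 5 and reached 16.3 and 12.1 RPM at day 9, against 0.338 and 0.788 RPM with BMP2 alone (log2 change 3.28 ± 0.60, adjusted p = 1.1e-05). Of 39 genes of the Hox clusters in the table, 0 reached the test at days 5 and 7, and 2 did at day 9. Hoxa3 was the one called: it stood at 0.399 and 0.243 RPM against 7.55 and 5.58 RPM at day 7 and at 1.35 and 1.58 RPM against 24.1 and 16 RPM at day 9 (log2 change 3.07 ± 0.60, adjusted p = 4.4e-05). Foxa1 lost its call at day 9 in the fit of 12 libraries (adjusted p = 0.15) and without any 1 library of that day (0.072 and 0.087 without the BMP2 libraries), where Nr2f2 and Hoxa3 kept theirs.

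Stra8 parted at day 5 and was the only meiotic gene in the lists to do so. Stra8, at chr6:34920163-34939344, had 3.20 and 3.89 RPM with BMP2 alone and 77.6 and 115 RPM with RA at day 5, a rise of 4.40 ± 0.69 (adjusted p = 2.3e-05). With BMP2 alone it then went up to 88.5 and 71.1 RPM at day 7 and 146 and 172 RPM at day 9, while the RA libraries held 812 and 730.1 RPM and 658 and 805 RPM. The treatments therefore did not overlap at any day, and the log2 difference was 3.26 ± 0.69 at day 7 (adjusted p = 0.00092) and 2.19 ± 0.69 at day 9 (adjusted p = 0.014). The difference at day 9 minus that at day 5 was -2.20 ± 0.98 and did not pass the test (adjusted p = 0.14). At day 9 its adjusted p was 0.1 without BMP2 replicate 2, 0.055 without BMP2 replicate 1 and 0.087 without B2RA replicate 2. In the fit of 12 libraries it was 0.00085. The log2 change of Stra8 at day 9 stayed at 2.05 to 2.34 without any 1 library of that day. Zglp1, the transcriptional regulator in the title of the series, showed no call: it was 21.6 and 26.1 RPM against 14.3 and 20.3 RPM at day 5, 49.0 and 53.9 RPM against 52.2 and 82.1 RPM at day 7 and 50.4 and 62.3 RPM against 48.8 and 53.6 RPM at day 9 (adjusted p = 0.82, 0.75 and 0.88).

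Of the other 9 regulators of meiotic entry 1 was first called at day 7, 3 at day 9 and 5 at no day. Of all 10, 1 of 6 tested was called higher at day 5, 2 of 8 at day 7 and 4 of 9 at day 9. The shares of all genes tested were 0.184%, 2.73% and 9.05% at these days. Rec8, the meiosis-specific kleisin of cohesin, was called at day 7 only: it was 26.4 and 18.3 RPM against 29.2 and 99.9 RPM at day 5, 125 and 156 RPM against 396 and 798 RPM at day 7 (log2 change 2.00 ± 0.43, adjusted p = 0.00099) and 166 and 126 RPM against 138 and 321 RPM at day 9, where the treatments overlapped. Its call at day 7 was lost without B2RA replicate 2 (adjusted p = 0.075) and in the fit of 12 libraries (adjusted p = 0.16). Meiosin, the partner of STRA8, had 3.15 and 10.9 RPM in the RA libraries of day 7 and 13.4 and 19.9 RPM at day 9, against 5.41 and 1.05 RPM with BMP2 alone (log2 change 2.26 ± 0.51, adjusted p = 0.00034). Meioc, which steadies meiotic transcripts, and Zfp541, which acts with a histone deacetylase in prophase, had 195 and 51.8 RPM and 83.2 and 6.57 RPM with BMP2 alone at day 9 and 641 and 322 RPM and 139 and 172 RPM with RA. For both the first BMP2 library was well above the second. The log2 changes at day 9 without BMP2 replicate 2 were 2.31 for Stra8, 1.43 for Meiosin, 1.22 for Meioc and 0.89 for Zfp541. With all libraries they were 2.19, 2.26, 2.16 and 2.63. Without BMP2 replicate 2 none of the 4 genes of this list was called at day 9, and Meiosin, Meioc and Zfp541 had adjusted p of 0.17, 0.42 and 0.43. Meioc also lost its call without B2RA replicate 1 (0.14). Dazl, the germ cell RNA-binding protein that licenses meiosis, did not pass at any day and stood at 1317 and 1484 RPM against 2257 and 2045 RPM at day 9 (adjusted p = 0.37).

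**Figure D2:**
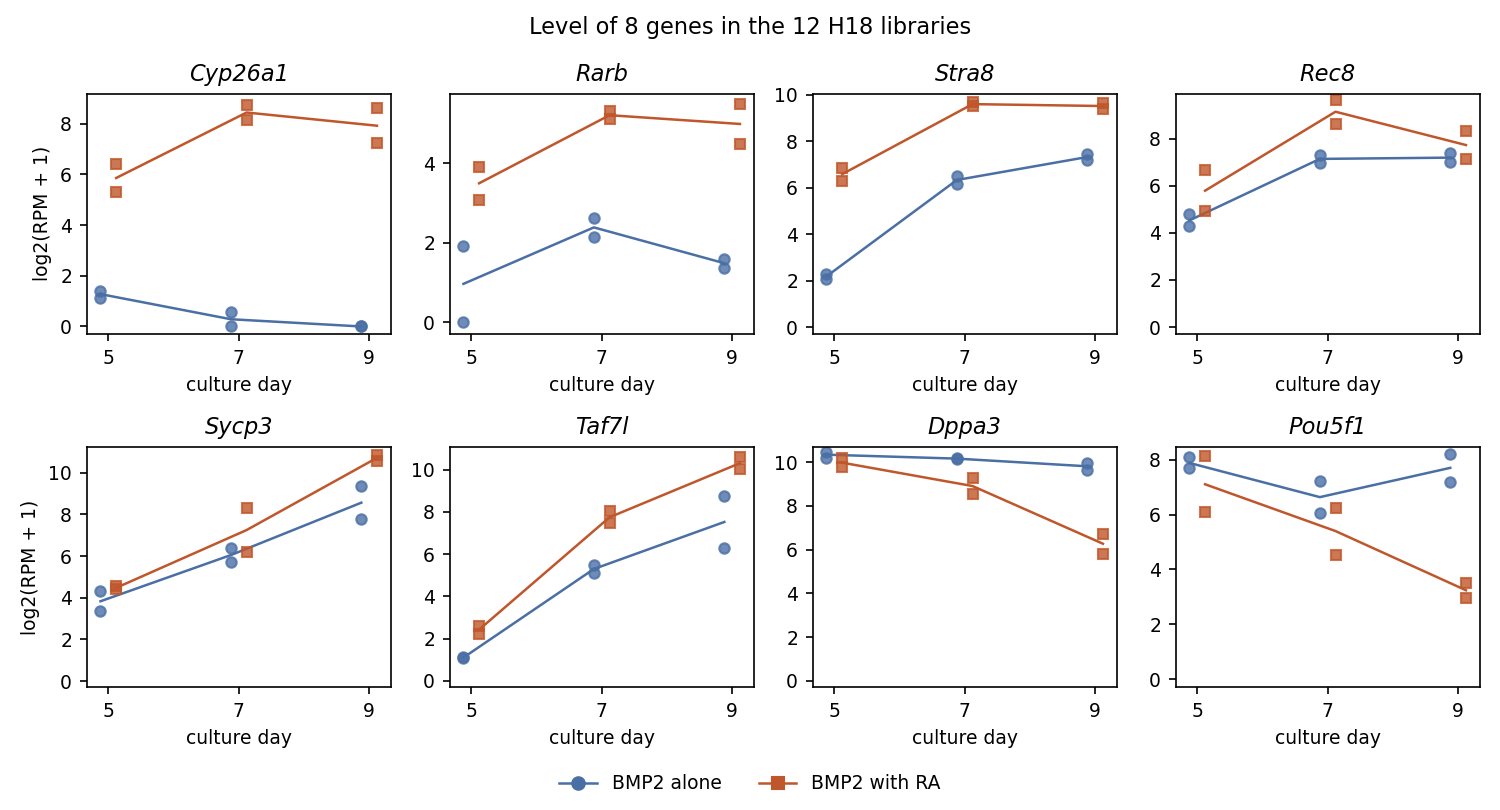
Level of 8 genes in each of the 12 libraries, log2(RPM + 1) on the vertical axis and culture day on the horizontal axis, with circles for BMP2 alone, squares for BMP2 with RA, and lines through the means of the 2 libraries. Cyp26a1 and Stra8 are already apart at day 5, whereas Dppa3 and Pou5f1 were not called at day 5 and are far apart at day 9.

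Some structural genes of meiotic chromosomes were called higher with RA at day 7 and most at day 9, while they also increased with BMP2 alone. Of 13 genes of meiotic cohesin and the synaptonemal complex, 0 of 8 tested were called at day 5, 4 of 12 higher at day 7 and 12 of 13 higher at day 9, with median changes of 0.01, 1.2 and 1.8. Beside them 2.73% of all genes tested were called higher at day 7 and 9.05% at day 9. The median level of the 13 genes, as log2(RPM + 1), was 4.15 and 3.79 with BMP2 alone at day 5, 5.56 and 5.13 at day 7 and 8.02 and 6.33 at day 9. With RA it was 4.54 and 4.41, then 7.13 and 6.34, then 9.32 and 9.13. At all 3 days both RA libraries were above both BMP2 libraries in this median, by least at day 5. At day 9 BMP2 replicate 1 was closer to the RA libraries than to BMP2 replicate 2. Without BMP2 replicate 2 none of the 13 was called at day 9, without BMP2 replicate 1 all 13 were, and in the fit of 12 libraries 1 was (Smc1b).

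Sycp3, a lateral element protein of the synaptonemal complex at chr10:88459569-88473236, stood at 82.5 and 51.7 RPM against 319 and 71.5 RPM at day 7 and did not pass (adjusted p = 0.15). At day 9 it stood at 659 and 217 RPM with BMP2 alone and 1879 and 1514 RPM with RA (log2 change 2.15 ± 0.51, adjusted p = 0.00081, and 0.22 without BMP2 replicate 2). Sycp1, the transverse filament, and Sycp2, the partner of SYCP3, were among the 4 genes called at day 7, with Syce1 and Hormad2. Sycp2 was 17.5 and 14.6 RPM against 108 and 91.3 RPM at day 7, with the groups apart, and 259 and 30.7 RPM against 724 and 559 RPM at day 9. Sycp1 was 231 and 44.9 RPM against 638 and 200.4 RPM at day 9, so that BMP2 replicate 1 was above B2RA replicate 2 and the groups overlapped, and its call was also lost without B2RA replicate 1 (adjusted p = 0.43). Without single libraries of day 7 the list had 1 gene called (without BMP2 replicate 2) to 5 (without B2RA replicate 2), and with TMM factors 2. Smc1b, the meiotic SMC subunit of cohesin, had 913 and 315 RPM against 1622 and 1643 RPM (log2 change 1.6 ± 0.35, adjusted p = 0.00024). Rad21l, another meiotic kleisin, was nearly silent at day 5 and at day 9 had 71.4 and 9.19 RPM against 196 and 185 RPM (log2 change 2.82 ± 0.48, adjusted p = 2.9e-06).

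Some genes of breaks and telomere attachment were called from day 7, and of crossovers at day 9. Of the break and strand exchange genes 0 of 7 tested were called at day 5, 3 of 13 higher at day 7 (Prdm9, Mei1 and Tex15) and 5 of 14 higher at day 9. Beside these counts and those of the next lists, 2.73% of all genes tested were called higher at day 7 and 9.05% at day 9. Tex15, a germ cell factor needed for recombination, was 62.6 and 62.9 RPM against 239 and 236 RPM at day 7 and 547 and 105 RPM against 1465 and 1231 RPM at day 9 (log2 change 2.48 ± 0.37, adjusted p = 7.8e-08). It was the only one of the 5 to hold without BMP2 replicate 2, where its change was 1.3, and in the fit of 12 libraries (adjusted p = 0.019). Prdm9, whose window is shown above, was 7.17 and 7.53 RPM against 23.9 and 38.5 RPM at day 7 and 71.7 and 4.73 RPM against 182 and 124 RPM at day 9, where the 2 BMP2 libraries were far apart and its adjusted p of 8.1e-05 became 0.4 without replicate 2. Spo11, which cuts the DNA, was 73.1 and 13.7 RPM against 71.3 and 92.1 RPM and did not pass at any day. Of the crossover factors 5 of 8 tested were called higher at day 9 (Msh4, Msh5, Hfm1, Rnf212 and Shoc1) and 0 of 5 at day 7. None of the 5 was called without BMP2 replicate 2, and 1 was in the fit of 12 libraries (Rnf212). Hfm1, also shown above, had 216 and 47.3 RPM against 339 and 339 RPM (adjusted p = 0.0072, and 0.61 without BMP2 replicate 2). Of the telomere and kinase factors 1 of 6 was called higher at day 7 (Majin, a part of the complex that ties telomeres to the nuclear envelope) and 6 of 8 at day 9 (Majin, Terb1, Terb2, Ccdc155, Spdya and Ccnb3). Ccnb3, a cyclin of meiosis, had no read in any library of day 5, 1.99 and 0 RPM against 3.78 and 6.85 RPM at day 7 and 24.0 and 0.788 RPM against 81.7 and 120.4 RPM at day 9 (log2 change 3.90 ± 0.47, adjusted p = 1.6e-10), and was the 1 of these 6 that held without BMP2 replicate 2.

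**Figure D3:**
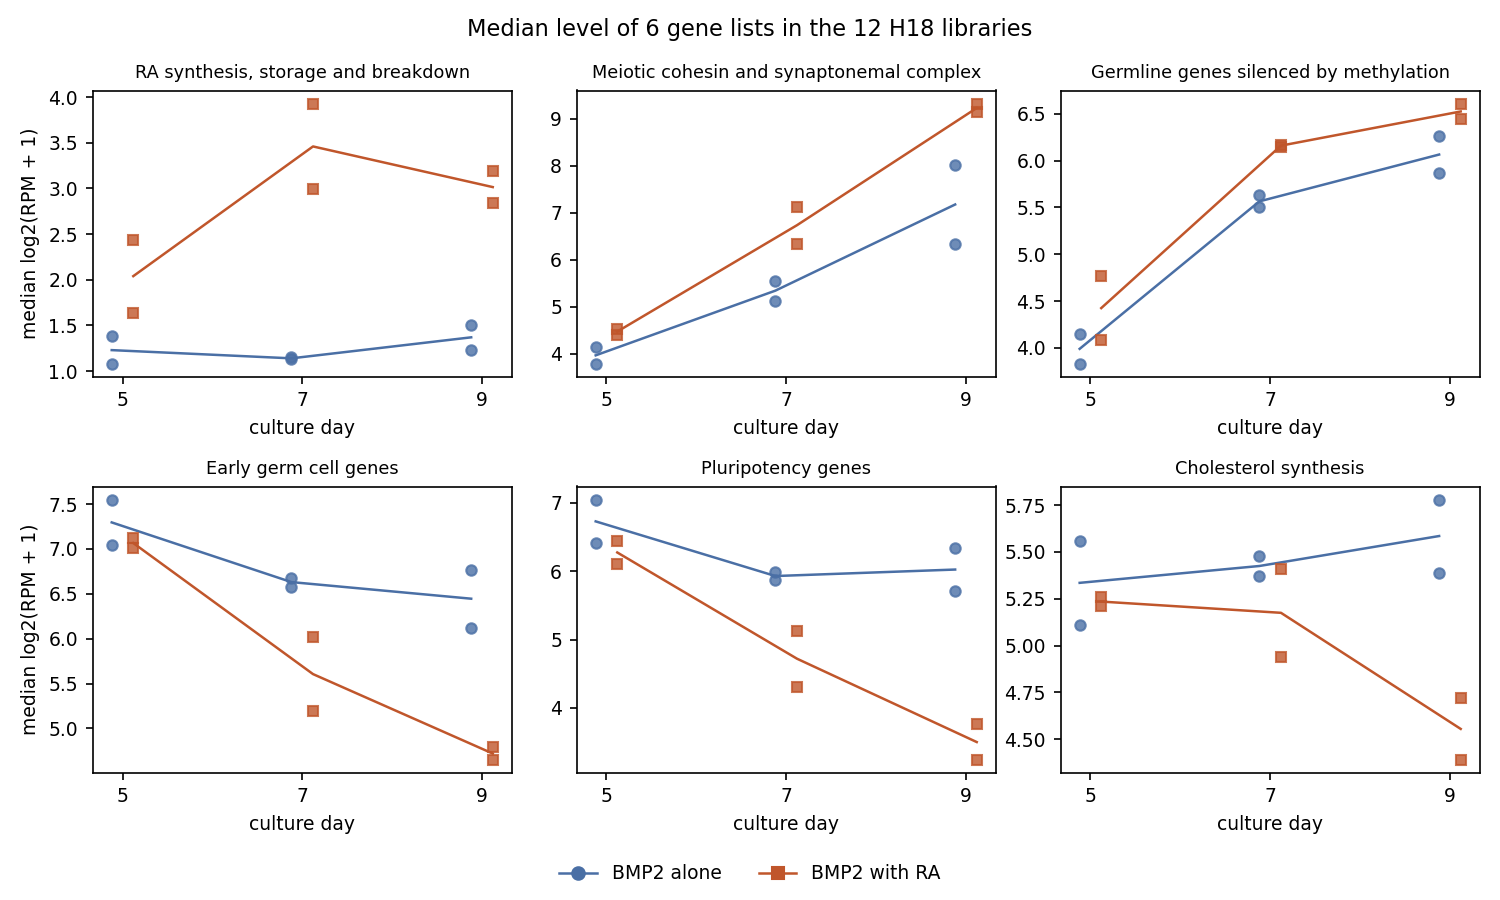
Median level of the members of 6 gene lists in each of the 12 libraries, log2(RPM + 1) against culture day, with circles for BMP2 alone, squares for BMP2 with RA and lines through the mean of the 2 libraries. The cohesin and synaptonemal complex median rises in both treatments and reaches 9.32 and 9.13 with RA at day 9, while the pluripotency median reaches 3.24 and 3.76 with RA against 5.71 and 6.34 with BMP2 alone.

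Germline genes that DNA methylation keeps silent in most tissues were higher with RA, in part, from day 7. Of 20 in the table, 0 of 12 tested were called at day 5, 4 higher and 1 lower of 19 at day 7 and 8 higher of 19 at day 9. The shares of all genes tested were 2.73% higher and 1.80% lower at day 7 and 9.05% higher at day 9. Taf7l, a germ cell TFIID subunit on the X chromosome, was 1.2 and 1.11 RPM against 3.72 and 5.16 RPM at day 5, 33.1 and 44.4 RPM against 261 and 174 RPM at day 7 and 434 and 76.7 RPM against 1554 and 1027 RPM at day 9 (log2 change 2.78 ± 0.58, adjusted p = 0.00013). Tex101, a germ cell surface protein, had 49.0 and 73.3 RPM against 178 and 391 RPM at day 7 and 388 and 60.2 RPM against 1039 and 1482 RPM at day 9. In both genes the groups did not overlap, BMP2 replicate 1 of day 9 was over 5 times replicate 2, and the calls of day 9 were lost without replicate 2 (adjusted p = 0.21 and 0.14). Dpep3, a germ cell membrane dipeptidase, was low in both BMP2 libraries of day 9 (3.05 and 1.58 RPM) and stood at 41.7 and 46.3 RPM with RA (log2 change 3.80 ± 0.49, adjusted p = 1.2e-09). Tdrkh, a Tudor protein of piRNA processing, had 51.8 and 46.8 RPM against 129 and 131 RPM. In the fit of 12 libraries 6 of the 19 were called at day 9, and without BMP2 replicate 2 there were 2, Dpep3 and Tdrkh. Ddx4, an RNA helicase of germ cells, did not pass (adjusted p at day 9 = 0.1). Tdrd1 was the gene called lower at day 7, at 18.7 and 22.3 RPM against 5.98 and 7.10 RPM, and this call was lost without any 1 of the 4 libraries (adjusted p = 0.23 without BMP2 replicate 2).

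Early oocyte factors were mostly below the limit of the test. Of 9 oocyte transcription factors measured, 4 were tested at day 9 and 3 were called higher (Figla, Taf4b and Ybx2), against 0 of 4 at day 7. Among all genes tested at day 9 the share called higher was 9.05%. Figla, which switches on zona pellucida genes, was 51.4 and 6.83 RPM against 95.7 and 79.99 RPM (log2 change 2.13 ± 0.51, adjusted p = 0.00088), and all 3 calls were lost without BMP2 replicate 2, where Figla had an adjusted p of 0.52. Nobox and Lhx8, later oocyte regulators, stayed at or below 3.26 RPM in all libraries of day 9. Ooep, a maternal protein of the subcortical complex that early germ cells and stem cells also transcribe, fell by 1.74 ± 0.30 at day 9, from 75.8 and 72.0 RPM to 18.2 and 25.3 RPM (adjusted p = 4.6e-06). Nxf2, an X-linked mRNA export factor of spermatogonia, was called higher at days 7 and 9 and stood at 35.5 and 8.67 RPM against 249 and 274 RPM at day 9.

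With RA, genes of early germ cells fell at day 9 and hardly before. Of 15 in the table, 0 of 14 tested were called at day 5, 2 of 14 lower at day 7 and 12 of 13 lower at day 9, with median changes of -0.20, -0.67 and -2.17. Among all genes tested 1.80% were called lower at day 7 and 6.98% at day 9. Dppa3, a guardian of methylation imprints at chr6:122626410-122630272, was 1187 and 1421 RPM with BMP2 alone and 1155 and 880.3 RPM with RA at day 5, 1124 and 1169 RPM against 622 and 370.4 RPM at day 7 and 807 and 1000.3 RPM against 55.4 and 105 RPM at day 9. The groups were apart at all 3 days, but by little at day 5 (adjusted p = 0.8), with a fall of 3.54 ± 0.37 at day 9 (adjusted p = 4.1e-13). The Dppa3 reporter was the gate by which the cells were collected at every day. Prdm14, which represses somatic and methylation genes in germ cells, went from 73.7 and 127 RPM to 39.3 and 21.5 RPM at day 7 and from 47.7 and 64.6 RPM to 3.58 and 4.49 RPM at day 9, a fall of 3.5 ± 0.45 (adjusted p = 2e-09). Prdm1, the inducer of germ cell fate, stood at 68.7 and 95.4 RPM against 15.3 and 16.3 RPM, and Tfap2c, its partner, at 56.2 and 100.3 RPM against 7.82 and 24.7 RPM. Ifitm1, an interferon-induced membrane protein of early germ cells, fell by 3.61 ± 0.49, from 514 and 634 RPM to 32.2 and 65.4 RPM (adjusted p = 9.5e-09). The calls of day 9 numbered 9 in the fit of 12 libraries and 8 without either BMP2 replicate 2 or B2RA replicate 1 (adjusted p = 0.44 for Kit, 0.45 for Alpl, 0.15 for Elf3 and 0.34 for Rhox6 without BMP2 replicate 2). The 2 calls of day 7, Dppa3 and Prdm14, were lost in the fit of 12 libraries (adjusted p = 0.17 and 0.089) and without B2RA replicate 2 (0.26 and 0.17).

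Pluripotency genes fell from day 7 on. Of 22 in the table, 0 of 18 tested were called at day 5, 10 of 17 lower at day 7 and 15 of 17 lower at day 9, none higher, with median changes of -0.30, -1.25 and -2.51. The shares of all genes tested called lower were 1.80% at day 7 and 6.98% at day 9. Pou5f1, which encodes OCT4, was 204 and 270.2 RPM against 277 and 67.1 RPM at day 5 and 148 and 65.3 RPM against 75.2 and 22.3 RPM at day 7, where the groups overlapped. At day 9 it was 146 and 295 RPM against 6.84 and 10.4 RPM, a fall of 4.46 ± 0.46 (adjusted p = 4.1e-13). Sox2 was 269 and 238 RPM against 130.3 and 54.8 RPM at day 7 and 179 and 208 RPM against 19.5 and 29.2 RPM at day 9 (a fall of 2.96 ± 0.41, adjusted p = 1.3e-08). Nanog stood at 53.1 and 137 RPM against 6.19 and 6.46 RPM at day 9. Esrrb, an orphan receptor of the naive state, had 178 and 231 RPM against 73.7 and 69.5 RPM at day 7, a fall of 1.49 ± 0.29 (adjusted p = 0.00021), and 98.5 and 132 RPM against 8.79 and 18.2 RPM at day 9. The 12-library fit called 14 of the 17 at day 9 and none at day 7, where Esrrb had an adjusted p of 0.089. Without B2RA replicate 2 the count at day 7 was 4, where Sox2 had an adjusted p of 0.26, and without BMP2 replicate 2 it was 5, while at day 9 it was 13 to 15 without any 1 library.

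Tdgf1, the coreceptor of Nodal, is one of the pluripotency genes and was among the largest falls of day 7, from 20.7 and 21.4 RPM to 2.52 and 0.254 RPM (a fall of 3.39 ± 0.64, adjusted p = 0.00016). Lefty2, a Nodal antagonist and target, was 25.5 and 47.8 RPM against 11.0 and 2.28 RPM at day 7 (adjusted p = 0.01, and 0.26 without B2RA replicate 2) and 41.3 and 13.1 RPM against 1.95 and 1.40 RPM at day 9, a fall of 3.20 ± 0.66 (adjusted p = 0.00012). Of 8 Nodal pathway genes 1 of 6 was called lower at day 7 and 2 of 5 at day 9, with Lefty1 the other, whose call was lost without B2RA replicate 1 (adjusted p = 0.42). Tet1, the methylcytosine dioxygenase of germ cells, was the one member called of the DNA methylation machinery, and fell by 3.20 ± 0.52 at day 9, from 86.3 and 130.3 RPM to 10.1 and 11.2 RPM (adjusted p = 1.3e-06). Beside the counts of the Nodal, methylation and Polycomb lists, 1.80% of all genes tested were called lower at day 7 and 6.98% at day 9. Of 14 Polycomb genes 2 were called lower at day 9, E2f6 and Cbx2, and neither was called without BMP2 replicate 2 (adjusted p = 0.11 and 0.07).

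BMP was present in both arms. Of 15 BMP targets 0 of 10 tested were called at day 5, and 2 higher and 1 lower at both day 7 (of 12) and day 9 (of 13), beside 2.73% higher and 1.80% lower of all genes tested at day 7 and 9.05% and 6.98% at day 9. Id1, the most used readout of BMP, was 419 and 189 RPM against 429.9 and 498 RPM at day 9 (adjusted p = 0.38), and Id2 and Id3 did not pass at any day. Msx1, a homeobox gene that both BMP and RA induce, went from 2.79 and 3.64 RPM to 31.2 and 69.5 RPM at day 7 and from 5.75 and 4.47 RPM to 33.2 and 55.6 RPM at day 9 (log2 change 2.86 ± 0.58, adjusted p = 7.9e-05, and 0.037 in 12 libraries). Atoh8 was the other gene called higher and Hey1 the one called lower, and neither held in the fit of 12 libraries. At day 9 Atoh8 had an adjusted p of 0.16 without BMP2 replicate 1 and Hey1 of 0.82 without B2RA replicate 2. Bmpr2, the type 2 BMP receptor, was called higher at days 7 and 9 (13.2 and 12.3 RPM against 49.5 and 28.1 RPM at day 9), with an adjusted p of 0.2 without B2RA replicate 1.

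A few genes of the mitotic cycle were called lower with RA at day 9, where 6.98% of all genes tested were called lower and 9.05% higher. Of 21 DNA replication genes 3 were called lower and 1 higher at day 9, of 20 genes of G2 and M phase 4 lower, and at days 5 and 7 none of either list. Without BMP2 replicate 2 the lower calls numbered 1 and 2, without BMP2 replicate 1 they numbered 6 and 7, and without B2RA replicate 1 they numbered 1 and 4. Mcm2, a subunit of the replicative helicase, was 439 and 477 RPM against 406 and 414 RPM at day 7 and 279.9 and 444 RPM against 131 and 182 RPM at day 9, a fall of 1.19 ± 0.16 (adjusted p = 1.1e-08). Without BMP2 replicate 2 Mcm2 fell by 0.85 and Ccnb2 fell by 0.90, and without B2RA replicate 1 Mcm2 fell by 0.95, each under the limit of 1 for a call. Ccnb1 and Ccnb2, the mitotic B cyclins, stood at 299 and 524 RPM and 288 and 537 RPM with BMP2 alone and 114 and 161 RPM and 128 and 187 RPM with RA. Mki67, the common marker of cycling cells, did not pass (207 and 255 RPM against 292 and 283 RPM, adjusted p = 0.3). Ccne2, a cyclin of the start of S phase, was the gene that rose, from 167 and 53.9 RPM to 507 and 356 RPM (adjusted p = 0.0028, and 0.29 without BMP2 replicate 2).

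Part of the metabolic genes fell at day 9. Of 18 glycolysis genes tested 6 were called lower at day 9 (4 of 16 at day 7), and of 17 cholesterol synthesis genes 9 (2 of 17 at day 7), none higher. Of all genes tested 6.98% were called lower at day 9 and 1.80% at day 7. Pfkp, the platelet phosphofructokinase, went from 93.7 and 146 RPM to 39.7 and 26.1 RPM at day 7 and from 46.4 and 111 RPM to 9.12 and 10.7 RPM at day 9, a fall of 2.75 ± 0.35 (adjusted p = 1.6e-09). Without BMP2 replicate 2 the counts at day 9 were 2 and 3, and in the fit of 12 libraries 4 and 4. The median level of the cholesterol list, as log2(RPM + 1), was 5.39 and 5.78 with BMP2 alone and 4.72 and 4.39 with RA. Of the integrated stress response genes 4 of 10 were called lower at day 9 (Trib3, Asns, Psat1 and Slc7a5), 0 without BMP2 replicate 2.

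Some markers of other lineages rose at day 9, and several were highest in 1 library. Of 20 mesoderm and endoderm markers 3 reached the test at day 9, through the RA libraries, and these 3 were called higher. The shares of all genes tested at day 9 were 9.05% higher and 6.98% lower. Gata4, a transcription factor of endoderm, heart and gonadal soma, was 0.677 and 3.15 RPM with BMP2 alone and 105 and 26.9 RPM with RA (log2 change 4.37 ± 0.64, adjusted p = 7.5e-08). Gata6, its relative, had 3.05 and 9.72 RPM against 73.9 and 21.6 RPM, and Pdgfra, a mesenchymal receptor, 2.03 and 3.41 RPM against 50.2 and 12.1 RPM. In each of the 3 genes B2RA replicate 1 was the highest, by 3 to 5 times over replicate 2. Without it Gata4 was still called (log2 change 3.40, adjusted p = 0.001), and Gata6 and Pdgfra were not (0.16 and 0.11). Gata6 also lost its call without BMP2 replicate 1 (0.085). The stroma markers Col1a1, Col3a1 and Tagln were called higher as well, and without B2RA replicate 1 none of the 3 was called (adjusted p = 0.32, 0.31 and 0.083). Their changes of 2.44, 2.67 and 1.62 were then 1.43, 1.69 and 1.85, so that of Tagln was not smaller. Of 14 neural markers 3 were tested at day 9, and 1 was called lower and none higher. It was Pax6, a neural and eye transcription factor, at 30.8 and 63.6 RPM against 8.79 and 17.1 RPM (log2 change -1.77 ± 0.59, adjusted p = 0.02, and 0.14 in 12 libraries, 0.36 without BMP2 replicate 2 and 0.21 without B2RA replicate 1). The summed level of the 20 feeder and stroma markers at day 9 was 529 and 1241 RPM with BMP2 alone and 1416 and 574 RPM with RA, so the treatments overlapped, and the range over all 12 libraries was 251 to 1416 RPM. The 12 gonadal soma markers summed to 23.0 and 12.6 RPM with BMP2 alone and to 114 and 33.1 RPM with RA at day 9. The part of such cells in the differences of day 9 was not tested beyond these values.

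**Figure D4:**
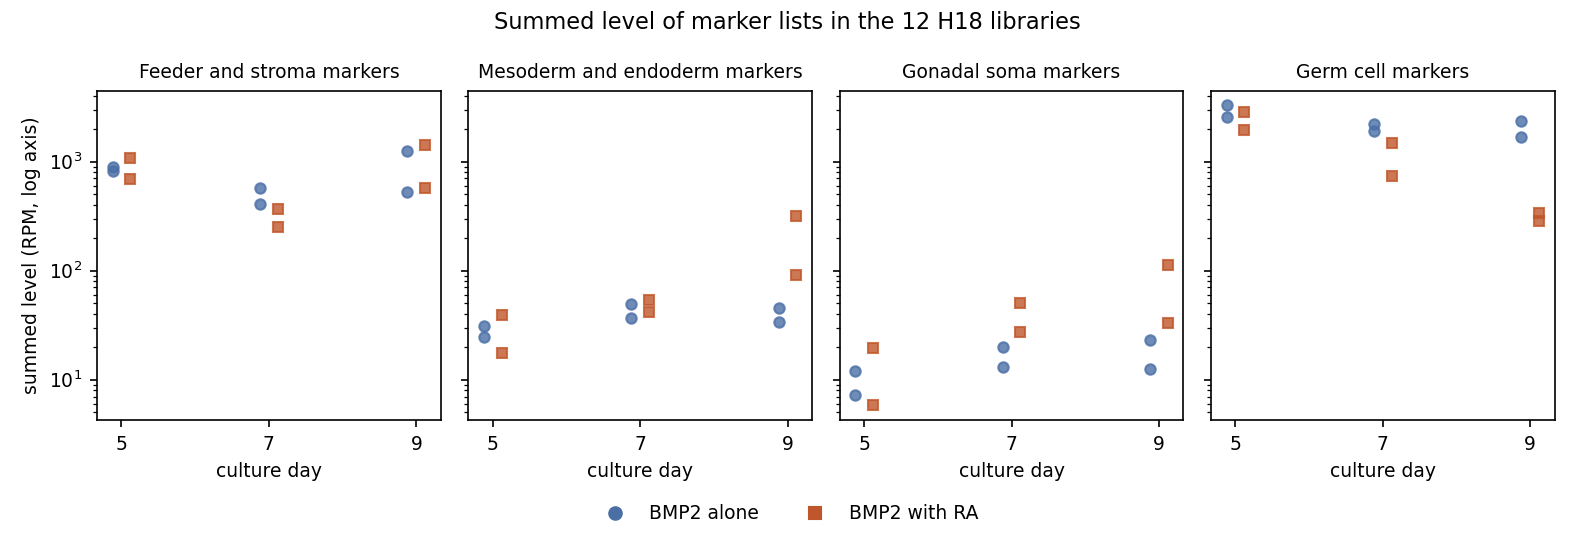
Summed level (RPM, log axis) of the markers of feeder and stroma cells, mesoderm and endoderm, gonadal soma and germ cells in each of the 12 libraries by culture day, circles for BMP2 alone and squares for BMP2 with RA, each library drawn on its own. B2RA replicate 1 of day 9 is the highest library for mesoderm and endoderm (318 RPM). The germ cell markers, all of them genes of early germ cells, are lower at day 9 with RA (284 and 337 RPM) than with BMP2 alone (1697 and 2359 RPM).

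Several of the genes with the largest changes were in none of the lists. The genes in the next sentences are the 8 largest calls in each direction among those whose groups did not overlap and whose higher mean reached 20 RPM. At day 5 the rises so chosen, besides Cyp26a1 and Stra8, were Bhlha15, Parvb, Acp5, Mdk, Dusp9 and Fam176b, and of the 3 falls Kctd13. Meg3, another of the 3 falls, stayed under 20 RPM at day 5 and is described below. Mdk encodes midkine, a growth factor known as an RA-induced gene, and was 122 and 92.8 RPM against 333 and 599 RPM at day 5, 206 and 207 RPM against 771 and 1994 RPM at day 7 and 133 and 117 RPM against 533 and 759 RPM at day 9. Its groups did not overlap at any day, and its rises were 2.06 ± 0.38, 2.58 ± 0.38 and 2.34 ± 0.38 (adjusted p = 0.00089, 8.3e-07 and 1.5e-06). In the fit of 12 libraries it was called at days 7 and 9 but not at day 5 (adjusted p = 0.42), and at day 5 it also lost its call without B2RA replicate 2 (0.23) or BMP2 replicate 2 (0.14). Dusp9, a phosphatase of ERK kinases, was 107 and 67.3 RPM against 232 and 414 RPM at day 5 and 146 and 148 RPM against 151 and 289 RPM at day 9, where it did not pass (adjusted p = 0.36).

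At day 7 the largest rises included Cyp26a1, Tgfb1i1, Car7, Dhrs3, Cyp26b1, Msx1 and Slc24a6. Car7, a carbonic anhydrase, went from 7.57 and 6.56 RPM to 79.3 and 144 RPM (log2 change 3.75 ± 0.52, adjusted p = 1.1e-07). The largest falls were Tdgf1, Morc1, Hsd17b11, Lrrfip1, Dusp4, Mup6, Tcl1 and Liph. Morc1, which silences transposons in male germ cells, fell from 37.9 and 49.3 RPM to 9.13 and 2.79 RPM at day 7 (log2 change -2.83 ± 0.37, adjusted p = 1.4e-08) and was 31.8 and 37.0 RPM against 22.5 and 21.9 RPM at day 9, where it did not pass (adjusted p = 0.22). Tcl1, a coactivator of AKT that stem cells express, fell from 114 and 143 RPM to 19.5 and 21.8 RPM at day 7 and from 63.6 and 104 RPM to 2.28 and 7.86 RPM at day 9. Lrrfip1 lost its call at day 7 without B2RA replicate 2, which held 0.254 RPM of it (adjusted p = 0.52).

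At day 9 the largest rises included Cyp26a1, Igfbp5, Gata4, Cyp26b1, Pet2, Clu and Reg2, and the largest falls by the same rule were Pou5f1, Liph, Khdc1a, Tcl1, Lhx1, Cpsf4l, Ifitm1 and Nanog. Igfbp5, a secreted binding protein of insulin-like growth factors, was 1.015 and 0.525 RPM with BMP2 alone and 149 and 19.9 RPM with RA, with B2RA replicate 1 over 7 times replicate 2 (log2 change 5.00 ± 0.73, adjusted p = 6.1e-08). Reg2, a secreted lectin of the pancreas, was 10.8 and 0.263 RPM against 63.2 and 56.1 RPM. Liph, a membrane lipase, fell by 4.24 ± 0.32, from 25.4 and 50.2 RPM to 1.95 and 0.281 RPM (adjusted p = 6.2e-21). Lhx1, a LIM homeobox gene of the early embryo, was 34.5 and 35.7 RPM against 2.93 and 0.561 RPM (a fall of 3.87 ± 0.68, adjusted p = 6.8e-06).

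The difference between the treatments was itself compared between days. Of 10146 genes tested, 525 had a higher and 347 a lower difference at day 9 than at day 5 (5.17% and 3.42%). With TMM factors the split was 404 and 441 (3.98% and 4.35%). Leaving out BMP2 replicate 2 of day 9 left 40 and 59, and leaving out BMP2 replicate 1 of day 9 gave 942 and 547. Without B2RA replicate 1 of day 5 it was 247 and 174, without BMP2 replicate 2 of day 5 it was 228 and 201, and the fit of 12 libraries gave 1 and 9 (0.00986% and 0.0887%). Of the early germ cell genes 9 of 14 and of the pluripotency genes 11 of 18 had a lower difference at day 9, none a higher one, and of the cohesin and synaptonemal complex genes 4 of 13 had a higher one. Without BMP2 replicate 2 of day 9 these counts were 3, 8 and 0, and in the fit of 12 libraries 2, 2 and 0. Dppa3 had a difference of -0.36 ± 0.37 at day 5 and -3.54 ± 0.37 at day 9, so that the change over the days was -3.18 ± 0.52 (adjusted p = 1.6e-05). For Pou5f1 the change over the days was -3.68 ± 0.65 (adjusted p = 6e-05, and 0.17 in 12 libraries), for Esrrb -2.74 ± 0.41 (adjusted p = 1.3e-06) and for Liph -4.09 ± 0.45 (adjusted p = 5.4e-11, and 0.073 in 12 libraries). Cyp26a1 had a change of 3.34 ± 0.88 (adjusted p = 0.0085), which depends on the added 1 RPM because no BMP2 library of day 9 had a read. It was not called without B2RA replicate 2 of day 9 (adjusted p = 0.085), BMP2 replicate 2 of day 9 or B2RA replicate 1 of day 5, or in 12 libraries (0.12).

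Meg3, a maternally expressed long noncoding RNA, changed direction. It was 13.6 and 13.9 RPM with BMP2 alone and 1.06 and 0.737 RPM with RA at day 5 (log2 change -2.96 ± 0.67, adjusted p = 0.018) and 8.80 and 3.15 RPM against 157 and 35.9 RPM at day 9 (log2 change 3.58 ± 0.67, adjusted p = 2.2e-05). The change over the days was 6.55 ± 0.94 (adjusted p = 1e-06), and the groups did not overlap at either day. B2RA replicate 1 was the highest library of day 9, as for Gata4, and the lower level of day 5 was not called in the fit of 12 libraries (adjusted p = 0.69) or without any 1 library of day 5 (0.06 to 0.31). The change over the days had an adjusted p of 0.048 in the fit of 12 libraries.

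Most called genes were called at 1 day only: 3 at day 5, 193 at day 7 and 1311 at day 9, beside 217 at days 7 and 9, 6 at days 5 and 7, 3 at days 5 and 9 and 7 at all of them. Of the 16 genes called higher at day 5, 13 were called higher at day 7 and 7 at day 9, and 1 was called lower at day 9 (Acy3, named after its values were seen). Of the 3 called lower at day 5, 0 were called lower at another day and 2 were called higher at day 9, Meg3 and Kctd13. Kctd13 had a log2 change of -1.86 at day 5 and 1.36 at day 9 (adjusted p = 0.02 and 0.012, the last 0.13 in 12 libraries). Of the 255 called higher at day 7, 234 were tested at day 9 and 125 were called higher there, and of the 168 called lower 143 were tested and 99 called lower, with 0 called the opposite way. These are 125 of the 868 genes called higher and 99 of the 670 called lower at day 9. The genes called at day 9 had a median difference at day 5 of -0.02 (868 higher, 426 of them tested at day 5) and -0.22 (670 lower, 655 tested), beside -0.11 for all genes tested at day 5. At day 7 the same groups had medians of 0.73 and -0.56, beside 0.05 for all genes.

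The same pair of treatments was also applied to clones Zko_E5 and Zko_G10, in which Zglp1 was knocked out, and the response of H18 was set against their mean at day 9. The Zglp1 row itself had means of 29.5 and 8.85 RPM with BMP2 alone and 26.5 and 20.9 RPM with RA in the pair of clones, and whether these 3' reads come from outside the deleted part is not given, so the row does not check the knockout. Of 10675 genes tested, 429 had a higher and 465 a lower response in H18 (4.02% and 4.36%). The count was 540 and 328 with TMM factors (5.06% and 3.07%) and 155 and 379 in a fit of H18 and the clones alone (1.45% and 3.55%). In the clones themselves 4.52% of the genes tested were called higher and 2.79% lower with RA. Without 1 library it was 43 and 72 (BMP2 replicate 2 of H18), 182 and 173 (B2RA replicate 1 of H18), 756 and 643 (BMP2 replicate 1 of H18) or 859 and 547 (B2RA replicate 1 of Zko_E5). Rarb and Mdk showed no called difference: their rises were 3.5 and 2.34 in H18 and 3.26 and 2.34 in the clones (adjusted p of the difference 0.88 and 1).

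Stra8 also rose in the clones by 4.11, from 14.2 and 28.8 RPM to 346 and 356 RPM (means of 2 libraries in each clone), and the difference from H18 did not pass (-1.92 ± 0.85, adjusted p = 0.14). Rec8 went from 36.1 and 51.3 RPM to 215 and 222 RPM, a rise of 2.34, whereas in H18 the log2 change of 0.53 did not pass (difference of the responses -1.81 ± 0.53, adjusted p = 0.017). That difference was not called without either BMP2 library or without B2RA replicate 1 of H18 (adjusted p = 0.25 without the last), or in a fit of H18 and the clones alone (0.064). Sycp3, which held 1879 and 1514 RPM with RA in H18, stood at 52.4 and 42.8 RPM with BMP2 alone and 78.1 and 51.7 RPM with RA in the clones (difference 1.75 ± 0.63, adjusted p = 0.059). Dppa3 was 1061 and 1362 RPM with BMP2 alone and 596 and 716 RPM with RA in the clones, and its fall was larger in H18 by 2.66 ± 0.45 (adjusted p = 2.4e-05). Pou5f1 fell more in H18 as well (difference -2.95 ± 0.56, adjusted p = 0.0002). Tdgf1 fell in both, by 2.86 in H18 and to 1.98 and 6.07 RPM from 53.4 and 59.8 RPM in the clones (difference 1.00 ± 0.79, adjusted p = 0.46). Cyp26a1 had a response larger in H18 by 6.49 ± 0.76 (adjusted p = 6e-10), with means of 9.67 and 4.46 RPM in the clones with BMP2 alone and 18.2 and 20.4 RPM with RA. The size of this difference depends on the added 1 RPM, since the BMP2 libraries of H18 had no read.

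**Figure D5:**
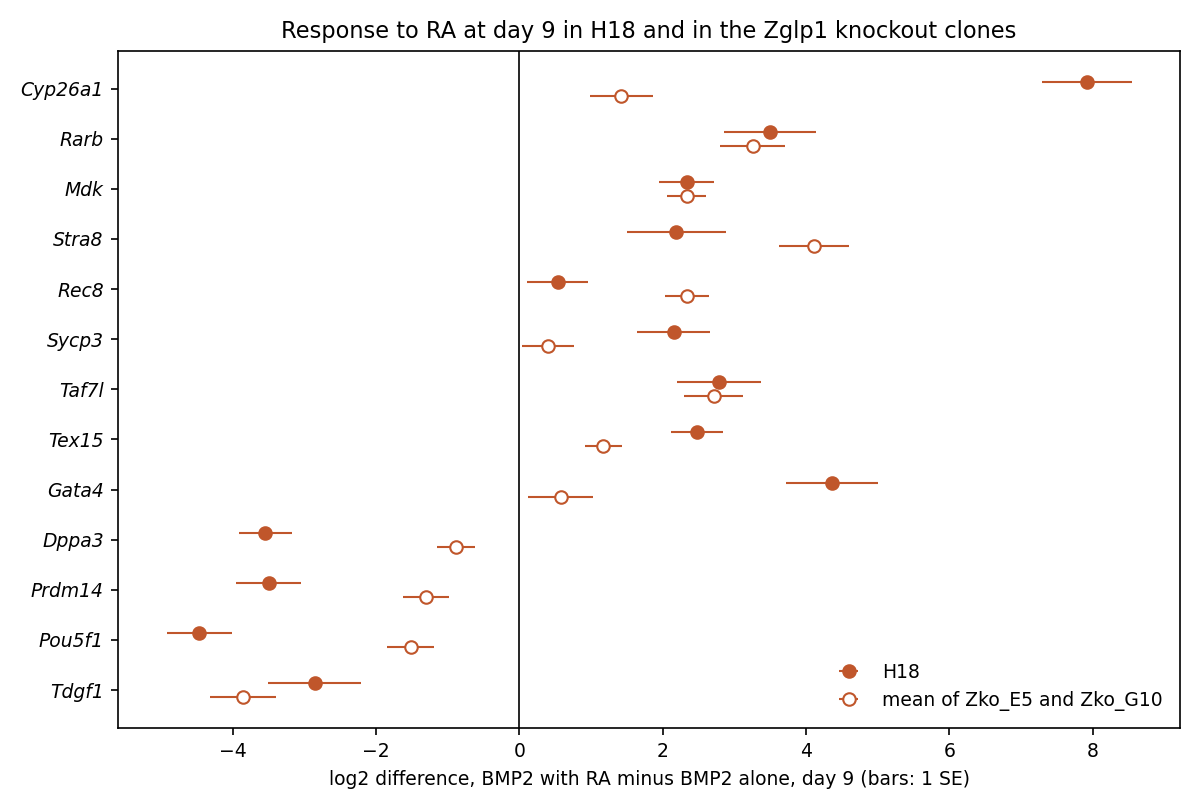
Response to RA at day 9 (log2 difference of BMP2 with RA and BMP2 alone) in H18, filled points, and as the mean of the 2 Zglp1 knockout clones, open points, for 13 genes, with bars of 1 SE. Rarb and Mdk lie close together in both, whereas Dppa3 and Pou5f1 lie lower in H18.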

How the data were processed

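RNA was measured by 3' end RNA-seq, amplified from 1 ng of total RNA. The authors deposited 1 table of RPM, that is reads per 1000000 assigned to endogenous genes, and 14 columns of other samples that the authors give as a signal on another scale, which entered no result. Per the submitters' processing notes the tools were HTSeq 0.9.1, SAMtools 1.3, cutadapt 1.9.1, Bowtie 1.1.2 and TopHat2 2.1.0, with the build mm10. Of 195 value columns 1 was left out because no sample has its name, and 3 lines were realigned. All low values came out as whole reads (within 0.05 reads).

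The main test was limma 3.58.1 (trend and robust) on log2(RPM + 1) over the group means of 191 PGCLC libraries, with Benjamini-Hochberg adjustment over all genes tested (10 RPM in at least 2 compared libraries) and a call at an adjusted p under 0.05 and at least 1 on the log2 scale. Fold changes on this scale understate the change of low genes. Genes named by rule were the 8 largest calls in each direction whose groups did not overlap and whose higher mean reached 20 RPM, predicted genes left out. Some genes under this rule or in the lists are not reported here. Alternatives were other pseudocounts, no filter, TMM factors, only the groups compared, a replicate block, array weights, edgeR 4.0.16 and DESeq2 1.42.0 on the recovered reads (R 4.3.3), and each library left out. The fits were tested on simulated data. The 31 gene lists (475 of 483 members in the table) and the genes were chosen with earlier results of these data known. The day was taken from the titles, since another label gives day 3.5 for all H18 samples. Counting intervals and floors (3 reads) cover counting error only. Gene positions are GENCODE M21 (mm10).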

Additional observations from a re-analysis of the deposited data

Results flagged for a closer look

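The difference between BMP2 with RA and BMP2 alone was larger or smaller at day 9 than at day 5 in 872 genes by the test of that difference, and between H18 and the Zglp1 knockout clones at day 9 in 894. Of the genes named, the change from day 5 to day 9 was 3.34 on the log2 scale in Cyp26a1, 6.55 in Meg3, -2.74 in Esrrb, -3.18 in Dppa3, -3.68 in Pou5f1 and -4.09 in Liph. The difference of H18 from the clones was 6.49 in Cyp26a1, -1.81 in Rec8, -2.66 in Dppa3 and -2.95 in Pou5f1. Each passed the adjusted p of the limma fit. Both sizes for Cyp26a1 depend on the added 1 RPM, since no BMP2 library of H18 at day 9 had a read.

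The table has 3 rows for transgene sequences that no comparison used, and H18 is not labelled as carrying them. The row for puromycin resistance held 16 to 103 RPM in the 12 libraries. The row for the reverse transactivator held 30.5 RPM in B2RA replicate 1 of day 7 and 2.13 RPM in B2RA replicate 1 of day 5. The mCherry row held 1.59 RPM in B2RA replicate 1 of day 5 and 1.26 RPM in B2RA replicate 1 of day 7, which is 3 and 4 reads. The source of these reads was not tested.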

How the results depend on the processing

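The number of genes called at days 5, 7 and 9, in the change from day 5 to day 9 and in the difference of H18 from the Zglp1 knockout clones was 19, 423, 1538, 872 and 894. Fitting only the groups compared gave 2, 22, 474, 10 and 534, edgeR on recovered reads 2, 19, 387, 16 and 432, and array weights 6, 19, 994, 236 and 156. DESeq2 on recovered reads gave 11, 153, 782 and 126 in the first 4, and 604 in the last. No filter on low values gave 103, 826 and 2377 at the 3 days. Without 1 library the counts ranged from 2 to 54 at day 5, 179 to 1168 at day 7, 419 to 2280 at day 9, 99 to 1489 for the change over days and 115 to 1406 for the difference from the clones. The spread of the fit (median residual SD) was 0.33 over all libraries and 0.398 over the 12, whose 6 residual degrees of freedom limit what that fit calls. The pooled spread was thus below that of the 12 libraries, so adjusted p-values of the main limma fit may be too small for them.

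The replicate numbers are shared between treatments, but same-numbered libraries deviated together at day 7 (r = 0.33) and not at days 5 and 9 (r = -0.39 and 0.0), so the numbers were not taken as pairs. With the replicate block the counts were 23, 468, 1594, 1020 and 1027, and every named call held. Crossing the numbers at day 5, an alternative chosen after seeing the data, gave 22 with the replicate block. Of 51 named genes called at day 7, 43 to 51 were called under the other pseudocounts, no filter, TMM factors and the block, and of 102 at day 9, 95 to 102. Fitting only the groups compared kept 9 and 60 of these, edgeR 8 and 54, DESeq2 35 and 64, and array weights 7 and 80. No named change was reversed in any setting. With 2 libraries a group, 1 library sets many calls.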
